A study of Mus musculus with 4 samples.

Results

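The respiratory chain of mitochondria is built from subunits of both the nuclear and the mitochondrial genome. Its genes were followed in 4 populations isolated by flow cytometry from mouse aorta-gonad-mesonephros (AGM) at embryonic day 11. Members were the protein-coding genes whose symbols began with Nduf, Uqcr, Cox4 to Cox8 or Atp5, the genes Sdha to Sdhd, and the protein-coding genes of mitochondrial DNA (symbols beginning with mt-). They numbered 101 of 51205 genes, 88 encoded in the nucleus and 13 in mitochondrial DNA. Cells came from the Runx1-IRES-GFP reporter line, in which GFP marks Runx1, a transcription factor required for blood formation. The labels give the genotype as WT, whereas the study describes pooled AGM from Runx1-GFP/GFP and Runx1-GFP/+ embryos. All populations were gated as negative for the perivascular proteins NG2 and PDGFRβ and positive for the endothelial protein CD31. Runx1+ IAHC, cells of intra-aortic hematopoietic clusters, were ckit+ and Runx1(GFP)+, hemogenic endothelial cells (HEC) were ckit-CD45-Runx1(GFP)+, Runx1- IAHC were ckit+ and Runx1(GFP)-, and endothelial cells (EC) were ckit-CD45-Runx1(GFP)-. No CD45 gate was applied to either IAHC population.

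Electrons from NADH enter the chain at complex I and those from succinate at complex II. Complexes III and IV carry them to oxygen while protons are pumped across the inner membrane, and complex V, the ATP synthase, uses the returning protons to make ATP. Complex II is wholly nuclear-encoded, whereas each of the other complexes also holds subunits made inside the organelle from mitochondrial DNA. Around the catalytic core sit small accessory subunits, some of which exist as tissue-restricted isoforms, and separate factors help to assemble the complexes. By complex, the nuclear members comprised 34 subunits and 8 assembly factors (Ndufaf genes) of complex I, 4 of complex II, 8 of complex III, 18 of complex IV, 15 of complex V and the coupling factor Atp5s. Ndufa4 and Ndufa4l2 were counted with complex IV.

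Each population was sequenced as 1 library, so no difference has a replicate check and no p-value is given. By the study's account Runx1- IAHC were by far the fewest cells sequenced and EC by far the most, and cDNA was made from part of each lysate. The part of cell number in the differences that involve Runx1- IAHC, and in genes without a read there, was not tested. Levels are TPM, transcript abundance scaled for gene length and for the library total. Every fold change is a ratio of recovered reads, given with an exact 95% counting interval. The interval covers counting error of reads only and not the sampling of cells, so a narrow one says nothing of how few cells were behind a library. Where a library held no read, the ratio is taken against 3 reads. A member was called higher or lower when its log2(TPM + 1) differed at least 2-fold and it reached 10 TPM in the higher library. Recovered reads totalled 12457953 to 15978571 per library, and 291043 to 461286 of them lay on the nuclear members. Runx1 had 10.1 TPM in Runx1+ IAHC and 13.0 TPM in HEC, against 0.128 TPM in Runx1- IAHC and 0.311 TPM in EC. Kit had 34.5 TPM in Runx1+ IAHC and 62.1 TPM in Runx1- IAHC, against 1.08 TPM in HEC and 9.69 TPM in EC. Markers of other cell types were uneven. The summed TPM of 5 megakaryocyte and platelet markers was 100.3 in Runx1+ IAHC, 50738 in HEC, 44.4 in Runx1- IAHC and 404.8 in EC. The 9 erythroid markers summed to 583.7 TPM in Runx1+ IAHC, 25852 TPM in HEC, 584.2 TPM in Runx1- IAHC and 48518 TPM in EC. The 5 primordial germ cell markers summed to 1.18 TPM in Runx1+ IAHC, 12.5 TPM in HEC, 5997 TPM in Runx1- IAHC, where all 5 were at 10 TPM or more, and 630.6 TPM in EC. The 8 endothelial markers summed to 112.0 TPM in Runx1+ IAHC and 246.4 TPM in HEC, against 928.1 TPM in Runx1- IAHC and 1625 TPM in EC, and the 6 hematopoietic markers to 1658 TPM in Runx1+ IAHC and 2514 TPM in HEC, against 17.8 TPM in Runx1- IAHC and 27.0 TPM in EC. The 4 pericyte and smooth muscle markers, the cells that the gate removes, summed to 5.64 to 51.9 TPM. The part of these cells in the differences given for the respiratory chain was not tested, and in bulk samples fewer cells of a type and less RNA per cell cannot be told apart.

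Nuclear-encoded members were abundant in every library. Of the 88, 85 reached 10 TPM in at least 1 library and 79 in all 4. Together they held 3.46% of all TPM in Runx1+ IAHC, 3.27% in HEC, 3.06% in Runx1- IAHC and 2.79% in EC. Mitochondrial genes and their nuclear copies took 22.6% of all TPM in EC, against 10.1% to 12.8% in the other libraries. With these left out of the total, the lowest share was in Runx1- IAHC and not in EC. The medians and ranks that follow are of TPM as deposited. The median of the 85 was 251.2 TPM in Runx1+ IAHC, 218.8 TPM in HEC, 251.0 TPM in Runx1- IAHC and 172.3 TPM in EC. EC was the lowest library for 43 of the 85 members and Runx1- IAHC the highest for 35, although Runx1- IAHC was also the lowest for 29. For 42 of the 85 the highest library exceeded the lowest by under 2-fold, and for 8 by 4-fold or more. The flattest was Atp5g2, a gene for the membrane ring subunit of ATP synthase, at 11.5, 10.7, 11.6 and 9.92 TPM in Runx1+ IAHC, HEC, Runx1- IAHC and EC. Of its 51-base stretches 36.7% also occur in other annotated genes, so its counts are uncertain.

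**Figure D1:**
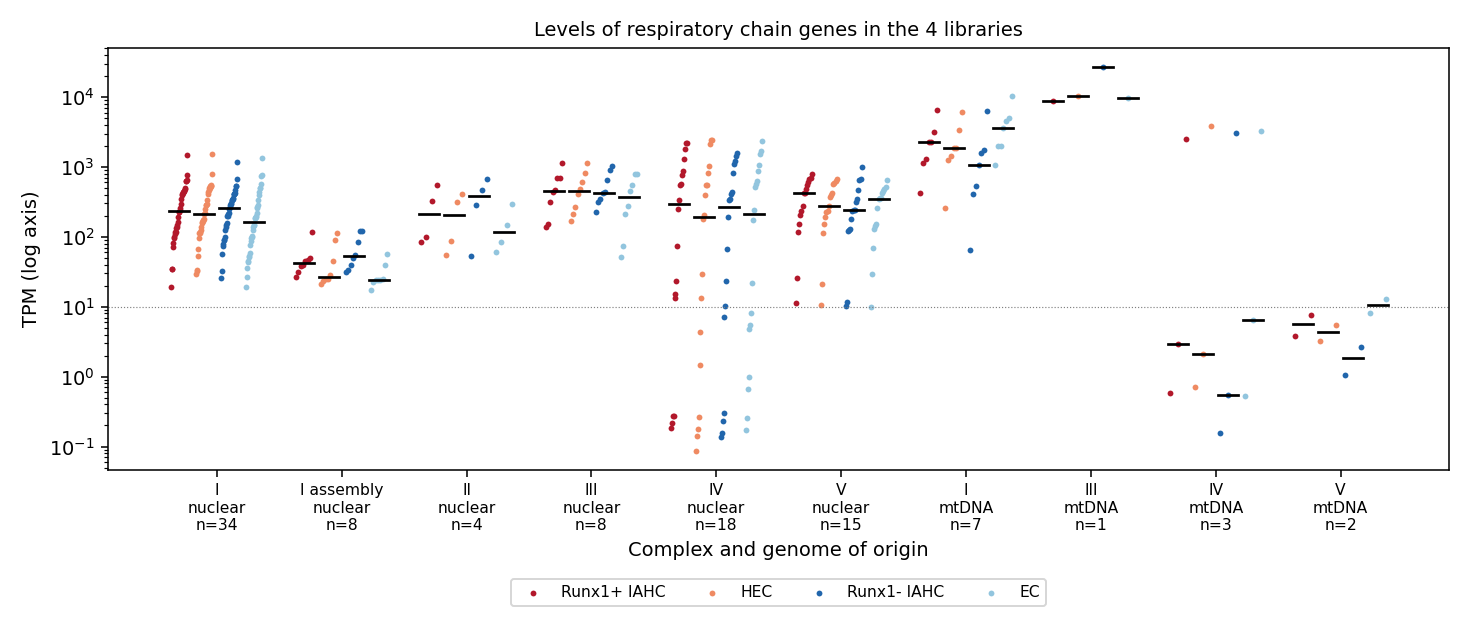
TPM of each member (log axis) by complex and genome of origin in Runx1+ IAHC, HEC, Runx1- IAHC and EC, with 1 point per gene and bars at the group median. The dotted line is at 10 TPM, which 79 of the 88 nuclear members reach in all 4 libraries, the lowest points are complex IV isoforms, and 2 of the 3 complex IV genes of mitochondrial DNA lie under 10 TPM.

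In Runx1+ IAHC, HEC and EC the highest nuclear-encoded levels belonged to small complex IV subunits, which surround the catalytic core. Cox6b1 had 2234, 2400, 1453 and 2329 TPM in Runx1+ IAHC, HEC, Runx1- IAHC and EC. Cox8a had 2183, 2429, 1225 and 1542 TPM in the same order. The lowest of the 4 levels was in Runx1- IAHC for both. The nuclear members of complex IV together held 1.15% of TPM in Runx1+ IAHC, 1.12% in HEC, 0.845% in Runx1- IAHC and 1.01% in EC, and complex I nuclear subunits 1.14%, 1.09%, 1.04% and 0.906%. Complex II, succinate dehydrogenase, had its largest share in Runx1- IAHC, with 0.111% in Runx1+ IAHC, 0.0914% in HEC, 0.156% in Runx1- IAHC and 0.0613% in EC.

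To ask how the chain differed between Runx1(GFP)+ and Runx1(GFP)- cells of the ckit-CD45- gate, HEC were compared with EC. All 8 endothelial markers were at least 2-fold lower in HEC than in EC. Of 82 nuclear members compared, 12 were at least 2-fold higher in HEC and 0 were lower. Their median log2 difference was 0.28. Over all 7793 genes compared, 22.7% were higher and 18.6% lower, with a median of 0.12, so the 14.6% of nuclear members called higher was below the share over all genes. The 12 spanned complexes I to V. They were Ndufs7, Ndufs8, Ndufa10, Ndufb7, Ndufb10, Ndufv3, Ndufaf3, Sdhb, Uqcrc1, Uqcrc2, Cox7a1 and Atp5g1. With TPM rescaled to leave out mitochondrial genes and their nuclear copies the count was 7, and with median-ratio scaling 6, with 0 lower in both. These scalings moved the median of the nuclear members to 0.12 and 0.091 and that of all genes to -0.12 and -0.14, and the share of higher genes among all called genes to 43.4% and 42.6%, beside 54.9% as deposited.

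Uqcrc1, a complex III subunit placed in the core list defined further on, differed most. It had 215.4 TPM in HEC, against 51.1 TPM in EC, a 4.22-fold difference (95% counting interval 4.01 to 4.44). Ndufb10, an accessory subunit of complex I, had 529.4 TPM in HEC, against 146.4 TPM in EC, 3.62-fold (3.42 to 3.83). Ndufaf3, which takes part in complex I assembly, had 88.6 TPM in HEC, against 24.8 TPM in EC, 3.57-fold (3.20 to 4.01). HEC was also the highest of the 4 libraries for Ndufb10 and Ndufaf3, whereas Uqcrc1 was higher still in Runx1- IAHC. Ndufv3, a subunit of the NADH-binding module of complex I, had 165.8 TPM in HEC, against 53.0 TPM in EC, 3.13-fold (2.93 to 3.35). Sdhb, the iron-sulfur subunit of complex II, had 319.5 TPM in HEC, against 147.3 TPM in EC, 2.17-fold (2.08 to 2.27). At the other end no nuclear member passed the rule, and the lowest value was that of Atp5e, the epsilon subunit of ATP synthase, with 278.9 TPM in HEC, against 481.2 TPM in EC. The platelet markers given above were highest in HEC and the erythroid markers in EC.

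The comparison of the ckit+ populations set Runx1+ IAHC against Runx1- IAHC. Of 85 nuclear members, 7 were at least 2-fold higher in Runx1+ IAHC and 9 lower, and their median log2 difference was 0.12. Over all 8726 genes the shares were 15.8% higher and 37.9% lower, with a median of -0.53. The 9 lower members held 5 subunits of the core list defined further on, among them Ndufv1, Ndufs1, Sdha and Uqcrc1, beside Ndufaf6, Atp5s, Cox7a1 and Cox7b2. The 7 higher members were Ndufa5, Ndufb3, Ndufc2, Atp5l, Atp5g3, Cox4i2 and Cox6a2, none of them in that list. Among these, Atp5g3, a gene for the membrane ring of ATP synthase, had 543.2 TPM in Runx1+ IAHC, against 179.9 TPM in Runx1- IAHC, 3.02-fold (2.91 to 3.14). Ndufc2, an accessory subunit of complex I, had 755.8 TPM in Runx1+ IAHC, against 251.0 TPM in Runx1- IAHC, 3.01-fold (2.86 to 3.18).

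Runx1+ IAHC and HEC, the Runx1+ populations, had the fewest called members. Of 84 nuclear members 3 were at least 2-fold higher in Runx1+ IAHC and 1 lower, against 13.3% and 13.9% of all 7279 genes compared. The higher members were Cox4i2, Cox6a2 and Ndufaf4, and the lower one was Ndufaf3. Ndufaf4, another complex I assembly factor, had 44.7 TPM in Runx1+ IAHC, against 20.9 TPM in HEC, 2.14-fold (1.97 to 2.33). Ndufaf3 had 40.0 TPM in Runx1+ IAHC, against 88.6 TPM in HEC. No core-list subunit passed the rule in this comparison. The median log2 difference of the nuclear members was 0.10, beside 0.19 over all genes, and its sign turned with median-ratio scaling (-0.094). That scaling also moved the share of higher genes among all called genes to 32.5%, beside 49.0% as deposited.

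The Runx1- populations differed in more members. Of 83 nuclear members, 26 were at least 2-fold higher in Runx1- IAHC than in EC and 5 were lower. Their median log2 difference was 0.36, but 0.15 without mitochondrial genes and copies and -0.14 with median-ratio scaling. Over all 8936 genes, 42.5% were higher and 16.6% lower, with a median of 0.71 that median-ratio scaling moved to 0.08. The members' share called higher, 31.3%, was thus below that of all genes. Without mitochondrial genes and copies 19 nuclear members were higher and 12 lower. With median-ratio scaling 14 were higher and 17 lower, and the share of higher genes among all called genes was 51.9%, beside 71.9% as deposited.

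Kinds of subunit stood apart in Runx1- IAHC. The core list had 19 measured members. It holds the conserved nuclear subunits of complex I that carry its redox centres, all of complex II, Uqcrc1, Uqcrc2 and the iron-sulfur protein Uqcrfs1 of complex III, Cox4i1 and Cox5a of complex IV, whose catalytic subunits are mitochondrially encoded, and the alpha, beta and gamma subunits of ATP synthase. In Runx1- IAHC 18 of the 19 were above EC and 12 were at least 2-fold higher, with 0 lower and a median log2 difference of 1.32. Over all genes 42.5% were higher and 16.6% lower there, with a median of 0.71. Of the 42 subunits outside the core and isoform lists, called accessory here, 19 were above EC and 23 below. Among those 42, 8 were at least 2-fold higher and 4 lower, and their median was -0.16. Rescaling a library moves both sets alike, so the gap between their medians cannot change with it, but the calls do. Without mitochondrial genes and copies the core list had 10 higher and 0 lower (median 1.10) and the accessory subunits 5 higher and 9 lower (-0.38). With median-ratio scaling the core list had 8 higher and 0 lower (0.81) and the accessory subunits 2 higher and 12 lower (-0.67). The 8 complex I assembly factors and Atp5s were all above EC, 5 of these 9 at least 2-fold higher (3 under either other scaling), with a median of 1.07. In Runx1+ IAHC, against Runx1- IAHC, the core list had a median of -0.28 with 5 members lower and the accessory subunits 0.33 with 4 higher. Over all genes in that comparison 37.9% were lower and 15.8% higher, with a median of -0.53. In HEC, against EC, the core list had a median of 0.48 with 5 members higher and the accessory subunits 0.01 with 4 higher, and neither had a member called lower. Over all genes 22.7% were higher in HEC and 18.6% lower, with a median of 0.12. Without mitochondrial genes and copies 2 core-list members were higher (median 0.31) and the accessory median turned to -0.16, and with median-ratio scaling 1 was higher (0.28) and the accessory median was -0.18.

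**Figure D2:**
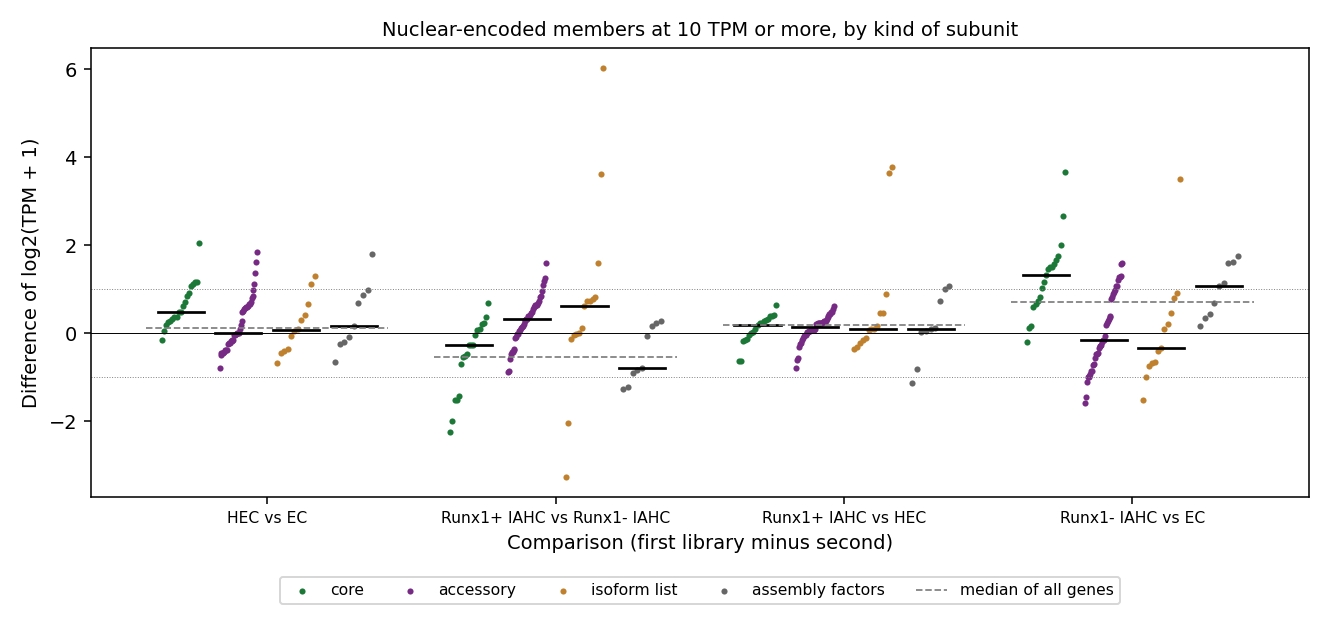
Differences of log2(TPM + 1), first library minus second, for nuclear-encoded members at 10 TPM or more, with 1 point per gene, black bars at the group median and dashed bars at the median of all genes (dotted lines at 2-fold). In Runx1- IAHC vs EC the core list has a median of 1.32 and the accessory subunits -0.16, whereas in Runx1+ IAHC vs HEC their medians are 0.19 and 0.15 (-0.02 and -0.05 with median-ratio scaling).

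Uqcrc1 again led the core list. It had 660.6 TPM in Runx1- IAHC, against 51.1 TPM in EC, 12.9-fold (12.3 to 13.6). In Runx1+ IAHC it had 138.0 TPM, which is 4.79-fold higher in Runx1- IAHC (4.65 to 4.93). Its partner Uqcrc2 had 223.5 TPM in Runx1- IAHC, against 74.6 TPM in EC, 3.00-fold (2.83 to 3.17), with 19.7% of its exonic bases under another gene. These partners in complex III thus differed by unequal factors. Ndufv1, which binds NADH and FMN at the entry of complex I, had 286.4 TPM in Runx1- IAHC, against 44.1 TPM in EC, 6.50-fold (6.07 to 6.97). Runx1+ IAHC had 71.4 TPM of Ndufv1 and HEC 53.9 TPM. Ndufs1, the largest iron-sulfur subunit of complex I, had 56.0 TPM in Runx1- IAHC, against 18.9 TPM in EC, 2.96-fold (2.78 to 3.15). For Uqcrc1, Ndufv1 and Ndufs1 alike Runx1- IAHC was the highest of the 4 libraries.

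The same library was highest for Sdha, the flavoprotein of complex II. Sdha had 289.6 TPM in Runx1- IAHC, against 85.5 TPM in EC, 3.39-fold (3.25 to 3.53). Sdhb had 468.3 TPM in Runx1- IAHC, against 147.3 TPM in EC, 3.18-fold (3.05 to 3.32). Sdhd, a membrane anchor, had 661.7 TPM in Runx1- IAHC, against 296.3 TPM in EC, while the other anchor, Sdhc, had 52.8 TPM in Runx1- IAHC, against 60.8 TPM in EC. Sdhc was the 1 core-list subunit that was not above EC. Atp5b, the catalytic beta subunit of ATP synthase, had 1002 TPM in Runx1- IAHC, against 350.6 TPM in EC, 2.86-fold (2.80 to 2.92). Atp5a1, its alpha partner in the catalytic head, had 640.6 TPM in Runx1- IAHC, against 361.7 TPM in EC, and stayed under the 2-fold rule. Cox4i1, the widely expressed isoform of subunit 4 of complex IV, had 1556 TPM in Runx1- IAHC, against 623.7 TPM in EC.

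The 5 nuclear members called lower in Runx1- IAHC than in EC were Ndufc2, Ndufb3, Atp5g3, Atp5l and Atp5e, all small subunits. Ndufc2 had 251.0 TPM in Runx1- IAHC, against 760.3 TPM in EC, which is 3.03-fold higher in EC (2.87 to 3.20). Atp5g3 had 179.9 TPM in Runx1- IAHC, against 518.7 TPM in EC, 2.88-fold higher in EC (2.78 to 3.00). Transcript length moved with this pattern. Nuclear members with transcripts of 955 bases or less had a median log2 difference of -0.18 (n = 42) and longer ones 0.91 (n = 41). All other nuclear protein-coding genes split at the same length had medians of 0.27 (n = 549) and 0.80 (n = 6139). Across the 83 members Pearson's r between the difference and log2 length was 0.33 and Spearman's rho 0.41, beside -0.17 and -0.21 across the 6688 other genes. These correlations are across genes of the same libraries and carry no p-value. The median transcript of the core list was 1623 bases and that of the accessory subunits 747.5 bases, so function and length cannot be told apart here. The germ cell markers were highest in the same library.

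**Figure D3:**
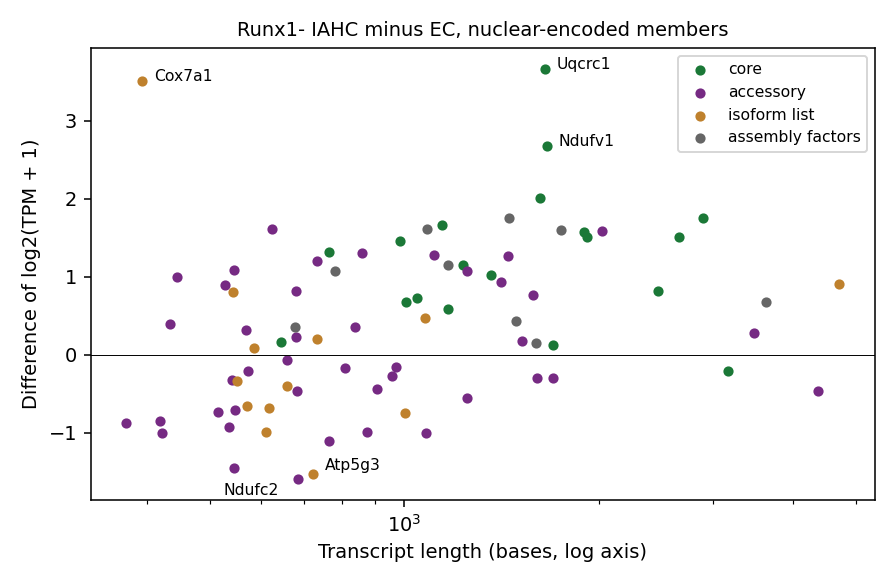
Transcript length in bases (log axis) against the difference of log2(TPM + 1), Runx1- IAHC minus EC, for the 83 nuclear-encoded members compared, with 1 point per gene coloured by kind of subunit. Core-list subunits lie toward longer transcripts and higher differences, and Cox7a1, a short transcript at 3.51, departs from the trend.

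Isoforms of complex IV showed the widest ranges among nuclear members. Cox4i2, an isoform of subunit 4 known from lung and as an oxygen-responsive gene, had 72.8 TPM in Runx1+ IAHC, 4.37 TPM in HEC and 8.13 TPM in EC. Runx1- IAHC held no read of it, and 3 reads there would be 0.410 TPM. Set against 3 reads in Runx1- IAHC, the level of Cox4i2 was 177.0-fold higher in Runx1+ IAHC. The lower limit of the exact interval, which also covers counting error in Runx1+ IAHC, was 143.5-fold. Compared with HEC it was 17.1-fold higher in Runx1+ IAHC (12.1 to 24.8). Its widely expressed counterpart Cox4i1 had 1283 TPM in Runx1+ IAHC, and Cox4i2 made up 5.37% of the TPM of both there, 0.427% in HEC and 1.29% in EC. Cox6a2, the heart and skeletal muscle isoform of subunit 6A, had 13.3 TPM from 91 reads in Runx1+ IAHC and no read in HEC, Runx1- IAHC or EC. Its counterpart Cox6a1 had 1807, 2095, 1087 and 1708 TPM in Runx1+ IAHC, HEC, Runx1- IAHC and EC. Thus Cox4i2 and Cox6a2 were both highest in Runx1+ IAHC, where each was a small share beside its counterpart.

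Other isoforms were highest in Runx1- IAHC. Cox7a1, the isoform of heart and skeletal muscle, had 15.2 TPM in Runx1+ IAHC, 13.4 TPM in HEC, 65.9 TPM in Runx1- IAHC and 4.88 TPM in EC. Runx1- IAHC was 14.1-fold above EC (9.08 to 23.1), and Cox7a1 made up 7.52% of the TPM of Cox7a1 and Cox7a2 in Runx1- IAHC, against 0.454% in EC. Cox7b2, an isoform known from testis, had no read in Runx1+ IAHC or HEC, 10.3 TPM from 51 reads in Runx1- IAHC and 5.47 TPM from 24 reads in EC. The germ cell markers were likewise highest in Runx1- IAHC and next in EC. Ndufa4l2, a hypoxia-responsive paralog of Ndufa4, had 7.19 TPM from 72 reads in Runx1- IAHC, against 0.975 TPM in EC and no read in HEC, and stayed under 10 TPM. Cox6b2, another testis isoform, was flat with 23.1, 29.1, 23.1 and 21.6 TPM in Runx1+ IAHC, HEC, Runx1- IAHC and EC. Cox8b had at most 1 read in any library, and Cox8c had 6 reads in HEC and none in the other libraries.

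**Figure D4:**
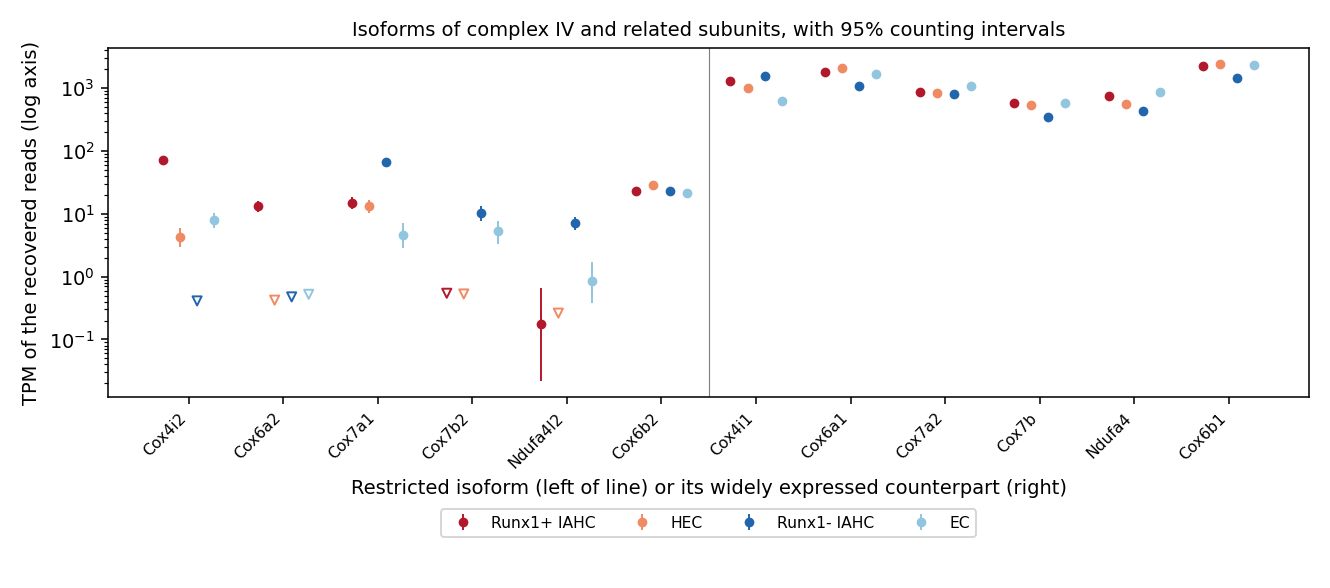
TPM of the recovered reads (log axis) with 95% counting intervals for tissue-restricted isoforms, left of the line, and their widely expressed counterparts, right of it, in Runx1+ IAHC, HEC, Runx1- IAHC and EC. Open triangles mark libraries with no read, drawn at 3 reads. Cox4i2 and Cox6a2 are highest in Runx1+ IAHC, whereas Cox7a1, Cox7b2 and Ndufa4l2 are highest in Runx1- IAHC.

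The mitochondrially encoded members could not be read as deposited without their nuclear copies. A stretch of chromosome 1 holds a copy of part of mitochondrial DNA, and 7 annotated genes there match 7 of the 13 members. Aligned without gaps, the copies of mt-Nd4, mt-Nd4l, mt-Co3, mt-Atp6 and mt-Co2 had 0 differing bases, that of mt-Nd3 had 1 and that of mt-Co1 had 6. The libraries were read as single 51-base reads, and 100% of the 51-base stretches of mt-Co2, 99.9% of mt-Co3, 99.5% of mt-Atp6, 98.8% of mt-Nd4l and 98.0% of mt-Nd3 also occur in other genes. The starts of mt-Co3 and mt-Nd3 are shown beside their copies, with the differing base in capitals, from the GENCODE M21 transcripts on GRCm38 (mt-Co3 at MT:8607-8666, plus strand, Gm28437 at chr1:24613912-24613971, minus strand, mt-Nd3 at MT:9459-9518, plus strand, Gm28438 at chr1:24613060-24613119, minus strand).
mt-Co3: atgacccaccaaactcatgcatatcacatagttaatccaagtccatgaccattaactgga
Gm28437: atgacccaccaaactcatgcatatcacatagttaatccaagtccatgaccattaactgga
mt-Nd3: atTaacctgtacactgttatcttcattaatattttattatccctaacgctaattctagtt
Gm28438: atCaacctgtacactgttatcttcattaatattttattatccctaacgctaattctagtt
The mt-Co3 stretches are the same in every base, so no read inside them can be placed by its sequence. The substitution in mt-Nd3 is T3C, counted from 1 at the start of the gene, with the base of mt-Nd3 first.

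Reads of these pairs fell on opposite sides. For mt-Co3, which encodes a core subunit of complex IV, the gene had 2.88, 2.08, 0.550 and 6.51 TPM in Runx1+ IAHC, HEC, Runx1- IAHC and EC. Its copy Gm28437 had 14582, 17514, 10945 and 32366 TPM in the same order. At least 99.9% of the reads of each of the pairs of mt-Co2, mt-Co3 and mt-Atp6 lay on the copy in every library. For mt-Nd4 and mt-Nd4l, whose copies are as alike, at most 1 read lay on the copy in any library. For mt-Nd3 47.9% to 50.7% of the reads of the pair lay on the copy, and for mt-Co1 55.0% to 74.8%. The counts of a gene and its copy are therefore uncertain taken singly, and the low TPM of mt-Co2, mt-Co3 and mt-Atp6 gives no level of these transcripts. mt-Atp8, whose exon lies 21.1% under mt-Atp6, had 3.85, 3.28, 1.06 and 8.14 TPM in Runx1+ IAHC, HEC, Runx1- IAHC and EC. It lies between mt-Co2 and mt-Atp6, and the placement of its reads was not tested, so its level is uncertain too.

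**Figure D5:**
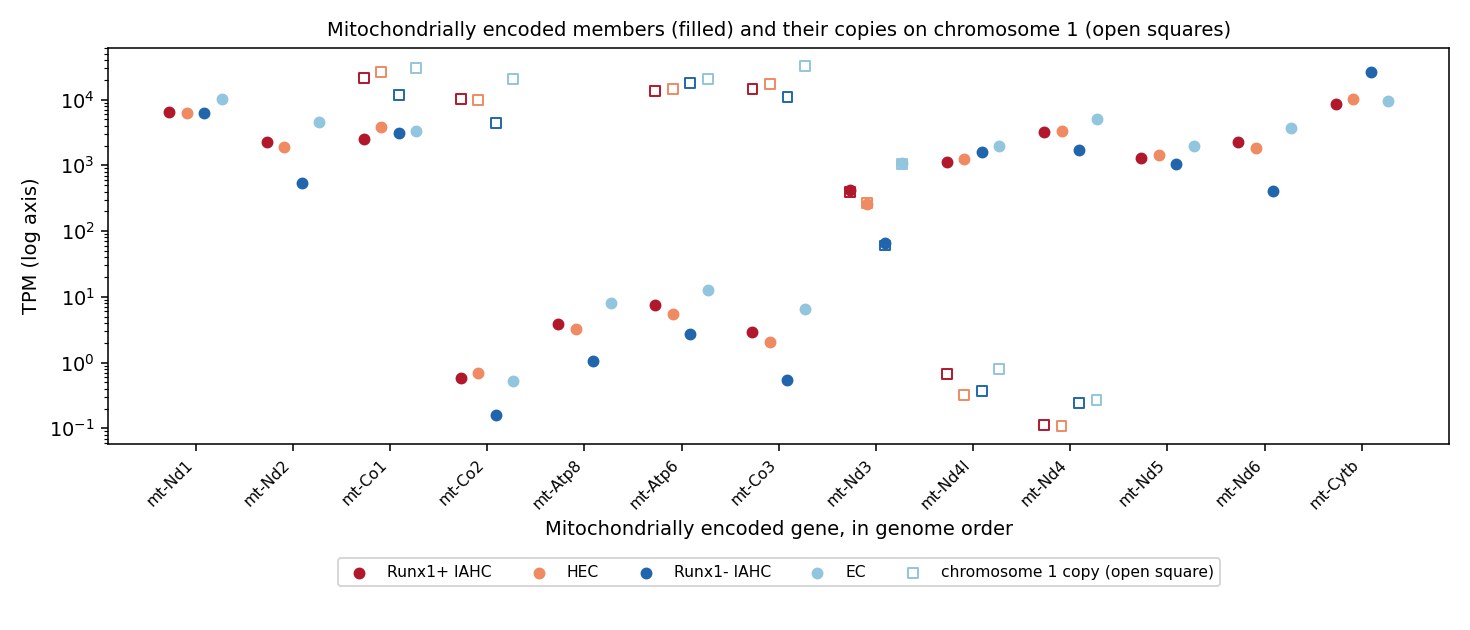
TPM (log axis) of the 13 mitochondrially encoded members in genome order (filled circles) and of the 7 copies on chromosome 1 (open squares) in Runx1+ IAHC, HEC, Runx1- IAHC and EC. The copies of mt-Co2, mt-Atp6 and mt-Co3 lie at 4359 TPM or more and the genes at 12.7 TPM or less, those of mt-Nd4 and mt-Nd4l lie under 1 TPM, and mt-Cytb is highest in Runx1- IAHC while mt-Nd2, mt-Nd3 and mt-Nd6 are lowest there.

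The 13 members held 2.96% of TPM in Runx1+ IAHC, 3.16% in HEC, 4.40% in Runx1- IAHC and 4.30% in EC, while 14 nuclear copies held 6.94%, 7.82%, 5.07% and 12.0%. The ribosomal RNAs of mitochondria held 2.06%, 1.67%, 0.470% and 6.06%. With transfer RNAs included, mitochondrial genes and copies held 12.2% of TPM in Runx1+ IAHC, 12.8% in HEC, 10.1% in Runx1- IAHC and 22.6% in EC. EC thus had the largest share once copies and ribosomal RNAs were included, whereas the 13 members alone held similar shares in Runx1- IAHC and EC. Their make-up was unlike, as mt-Cytb gave 64.3% of the TPM of the 13 in Runx1- IAHC, against 23.1% in EC.

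Of the members free of shared stretches, mt-Cytb, the catalytic cytochrome b of complex III, stood out. It had 8659 TPM in Runx1+ IAHC, 10179 TPM in HEC, 26679 TPM in Runx1- IAHC and 9577 TPM in EC. Runx1- IAHC was 2.79-fold above EC (2.77 to 2.81). mt-Nd6, the complex I subunit encoded on the opposite strand, went the other way. It had 2263 TPM in Runx1+ IAHC, 1866 TPM in HEC, 405.9 TPM in Runx1- IAHC and 3656 TPM in EC. EC was 9.01-fold above Runx1- IAHC (8.60 to 9.45). mt-Nd1, also without shared stretches, had 6439, 6201, 6346 and 10338 TPM in Runx1+ IAHC, HEC, Runx1- IAHC and EC. Transcripts of the same genome therefore differed in order between the libraries, although mt-Cytb and mt-Nd6 are parted by only a transfer RNA gene.

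The remaining complex I members followed mt-Nd6 to differing extents. mt-Nd2 had 540.8 TPM in Runx1- IAHC, against 4491 TPM in EC, 8.31-fold higher in EC (8.07 to 8.55). mt-Nd3 had 65.1 TPM in Runx1- IAHC, against 1072 TPM in EC, 16.6-fold higher in EC (14.4 to 19.1), and its copy had 60.3 TPM in Runx1- IAHC, against 1040 TPM in EC. mt-Nd4 had 1719 TPM in Runx1- IAHC, against 5007 TPM in EC, 2.91-fold higher in EC (2.87 to 2.96). mt-Nd5 and mt-Nd4l were within 2-fold, with 1059 and 1591 TPM in Runx1- IAHC, against 1965 and 2002 TPM in EC. All 7 complex I members of mitochondrial DNA were below EC in Runx1- IAHC, and all 7 were also below EC in HEC.

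In HEC, against EC, 10 mitochondrially encoded members were compared, with a median log2 difference of -0.72. Of these, 0 were higher and 3 were lower (mt-Nd2, mt-Nd3 and mt-Atp6, with mt-Nd3 and mt-Atp6 uncertain for their copies). Over all genes 22.7% were higher and 18.6% lower. mt-Nd3 had 261.6 TPM in HEC, against 1072 TPM in EC, and mt-Nd2 1885 TPM in HEC, against 4491 TPM in EC. Runx1- IAHC had 1 member of 10 higher than EC (mt-Cytb) and 5 lower, beside 42.5% and 16.6% of all genes. The lower were mt-Nd2, mt-Nd3, mt-Nd4, mt-Nd6 and mt-Atp6, with mt-Nd3 and mt-Atp6 uncertain for their copies. The median of the 10 was -1.22, and -1.72 with median-ratio scaling. Without mitochondrial genes and copies it was -1.76, but that scaling also lifts mt-Atp8 over 10 TPM in EC, so the members compared differ. In Runx1+ IAHC, against Runx1- IAHC, 3 of 9 were higher (mt-Nd2, mt-Nd3 and mt-Nd6) and 1 lower (mt-Cytb), beside 15.8% and 37.9% of all genes. The count of mt-Nd3 is uncertain here too. Between Runx1+ IAHC and HEC 0 of 9 passed the rule in either direction, beside 13.3% higher and 13.9% lower over all genes.

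Adding the reads of a gene and its chromosome 1 copy gave combined levels for the pairs, an alternative chosen after the data were seen. Other nuclear copies, among them Gm13341, Gm13340 and Gm13339 on chromosome 2, were not added, so these levels may be incomplete. mt-Co2 with its copy had 10256 TPM in Runx1+ IAHC, 9689 TPM in HEC, 4340 TPM in Runx1- IAHC and 20179 TPM in EC. mt-Co3 with its copy had 10931 TPM in Runx1- IAHC, against 32331 TPM in EC. mt-Atp6 with its copy had 17545 TPM in Runx1- IAHC, against 20670 TPM in EC. mt-Co1, which alone had 3063 TPM in Runx1- IAHC, against 3275 TPM in EC, had 6800 and 13018 TPM with its copy. mt-Nd3 with its copy had 124.2 TPM in Runx1- IAHC, against 2102 TPM in EC. Combined in this way the pairs of mt-Co1, mt-Co2, mt-Co3, mt-Nd3 and mt-Nd4 were lowest in Runx1- IAHC. Those of mt-Atp6 and mt-Nd4l were lowest in Runx1+ IAHC, at 13481 and 1121 TPM.

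Other mitochondrial genes were read as lists outside the members, beside the 42.5% of all genes higher in Runx1- IAHC than in EC and the 22.7% higher in HEC than in EC. Of 76 mitochondrial ribosomal protein genes compared, which serve translation inside the organelle, 43 were higher and 1 lower in Runx1- IAHC than in EC (median log2 difference 1.07), and in HEC, against EC, 27 of 75 were higher and 0 lower (median 0.74). With median-ratio scaling these counts were 26 higher and 2 lower in Runx1- IAHC and 19 higher and 1 lower in HEC, each against EC, with medians of 0.57 and 0.55. Of 12 genes of the tricarboxylic acid cycle, which supplies NADH and succinate, 7 were higher and 0 lower in Runx1- IAHC than in EC (median 1.37) and 5 were higher and 0 lower in HEC than in EC (median 0.73). Mdh2, malate dehydrogenase, had 410.1 TPM in HEC and 978.0 TPM in Runx1- IAHC, against 136.2 TPM in EC. With median-ratio scaling 5 cycle genes were higher and 0 lower in each. Of the 4 electron carriers, 3 were higher in Runx1- IAHC (2 with median-ratio scaling) and 2 in HEC, each against EC. Etfa, a subunit of the electron transfer flavoprotein, had 298.7 TPM in Runx1- IAHC and 192.4 TPM in HEC, against 49.8 TPM in EC. In Runx1+ IAHC, against Runx1- IAHC, 0 of the 76 ribosomal protein genes were higher and 10 lower, and 0 of the 12 cycle genes were higher and 3 lower. Over all genes in that comparison 15.8% were higher and 37.9% lower. The list medians were -0.13 and -0.17, beside -0.53 over all genes.

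Other lists are read beside the shares over all genes. These were 42.5% higher and 16.6% lower in Runx1- IAHC than in EC. In HEC, against EC, they were 22.7% higher and 18.6% lower. Some lists were near the shares of higher genes and others were below them. Assembly factors outside the members had 12 of 26 higher and 0 lower in Runx1- IAHC than in EC (8 higher and 3 lower of 28 with median-ratio scaling), and 5 of 23 higher and 0 lower in HEC than in EC (5 higher and 2 lower of 24). The mitochondrial DNA maintenance and transcription list had 5 of 12 higher and 0 lower in Runx1- IAHC than in EC (3 higher with median-ratio scaling), and 0 of 9 higher and 1 lower in HEC than in EC. Among genes that carry ATP and phosphate across the mitochondrial membranes, 1 of 7 was higher and 1 lower in Runx1- IAHC than in EC. These were Slc25a4, an ATP/ADP carrier, with 939.1 TPM in Runx1- IAHC, against 294.0 TPM in EC, and Vdac1, an outer membrane channel, with 51.3 TPM in Runx1- IAHC, against 157.3 TPM in EC. Of 5 nuclear regulators compared between Runx1- IAHC and EC, 2 were higher and 1 lower. Nrf1, a transcription factor known to bind promoters of respiratory genes, had 7.12 TPM in Runx1+ IAHC, 4.23 TPM in HEC, 25.4 TPM in Runx1- IAHC and 5.65 TPM in EC. Yy1, another such factor, had 27.4 TPM in Runx1+ IAHC, 18.5 TPM in HEC, 3.91 TPM in Runx1- IAHC and 27.5 TPM in EC, so that it was lowest where Nrf1 was highest.

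RefSeq promoters (250 bases before to 50 after the start, GRCm38.p6) were matched for 72 of the 88 nuclear members. On either strand, the NRF1 letters GCGCATGC occurred in 11 of the 72 (15.3%), against 2.80% of 27025 promoters. The ETS letters CCGGAAG, as bound by the factor GABPA, occurred in 17 (23.6%, against 9.12%), and the YY1 letters AAGATGGC in 9 (12.5%, against 2.88%). The TATA letters TATAAA occurred in 7 (9.72%, against 14.2%). The median GC content of the member promoters was 57.3%, against 52.7% over all promoters, and its part in these shares was not tested. A match marks letters only and shows no binding, and the NRF1 letters can overlap their own reverse complement. Uqcrc1 and Sdhb, which both hold an NRF1 match, are examples from the core-list subunits called higher than EC in both HEC and Runx1- IAHC. Ndufs7 and Uqcrc2 were also called higher in both and are not shown. The promoters of Uqcrc1 and Sdhb are given with the matched letters in capitals, 5′ to 3′ on the strand of the gene (Uqcrc1 at chr9:108936398-108936697, plus strand, Sdhb at chr4:140961021-140961320, plus strand).
Uqcrc1: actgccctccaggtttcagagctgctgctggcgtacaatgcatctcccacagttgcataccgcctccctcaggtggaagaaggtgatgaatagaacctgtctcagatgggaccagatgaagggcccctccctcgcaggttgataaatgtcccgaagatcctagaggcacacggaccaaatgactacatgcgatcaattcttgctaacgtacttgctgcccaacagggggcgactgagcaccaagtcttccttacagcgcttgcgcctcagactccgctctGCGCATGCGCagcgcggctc
Sdhb: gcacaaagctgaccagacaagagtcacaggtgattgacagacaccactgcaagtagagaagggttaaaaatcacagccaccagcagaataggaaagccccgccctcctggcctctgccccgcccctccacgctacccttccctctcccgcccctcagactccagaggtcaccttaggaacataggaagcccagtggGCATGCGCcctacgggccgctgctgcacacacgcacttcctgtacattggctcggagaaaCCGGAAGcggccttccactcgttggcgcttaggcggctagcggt
Uqcrc1 holds the NRF1 letters on both strands in 1 overlapping run just after the start, and Sdhb holds an NRF1 match and an ETS match. In Runx1- IAHC, against EC, 5 of 11 compared members with an NRF1 match were at least 2-fold higher and 16 of 60 without, beside 42.5% of all genes. For the ETS letters the counts were 5 of 17 with and 16 of 54 without, and for the YY1 letters 3 of 9 with and 18 of 62 without.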

How the data were processed

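Bulk RNA sequencing of 4 sorted populations from mouse AGM at embryonic day 11, 1 library each, was analysed from a deposited gene table. A template-switching kit gave full-length cDNA from part of each lysate, Nextera XT libraries were made from it, and 51-base single reads were taken. The authors aligned the reads to GRCm38 with HISAT2 2.0.4, counted them against GENCODE M19 in union mode, which discards a read overlapping several genes, and deposited TPM values. No strand setting is given in the sources used here. The deposited columns sum to 942562 to 962265 TPM.

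TPM multiplied by exonic length (GENCODE M21) came in whole steps, with 1 read added to every gene. For 49371 genes (96.4%) all 4 values were whole within 0.01, and for 13 members the length was found by search, so reads were recovered for all 101 members. Whole reads were not used in a count model, because each population has 1 library. Differences are of log2(TPM + 1), so the change of low genes is understated. Counting intervals are exact (Clopper-Pearson) and a gene with no read is set against 3 reads. Shared sequence was counted as 51-base stretches of member transcripts found in other genes. The method was tested on simulated data. The columns of 9 other samples in the table were not used.

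Members and lists were chosen with earlier results of these data known. Genes named in the text are the mitochondrial members, the 6 highest and 6 lowest members of each comparison, core subunits, listed isoforms and nuclear copies. Other called members and the examples from the lists were named after their values were seen. Cox5b of the core list, Cox6c, Ndufb9 and Ndufa6 were not analysed here. One further member is counted but not reported by name. Alternatives were a pseudocount of 5 TPM, minima of 1 and 50 TPM, rescaling, a 4-fold rule, means, and subunits only. Python 3.11.15, numpy 2.4.6, pandas 2.3.3, scipy 1.17.1 and matplotlib 3.10.9 were used.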

Additional observations from a re-analysis of the deposited data

Results flagged for a closer look

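Of 91 members at 10 TPM or more in both contrasts of Runx1+ with Runx1- cells, 4 (4.4%) were at least 2-fold apart in opposite directions in ckit- cells (HEC vs EC) and ckit+ cells (Runx1+ IAHC vs Runx1- IAHC), beside 656 of 6758 genes (9.71%). Each direction rests on 1 library per population, so the difference between the contrasts was not tested. Uqcrc1 had a log2 difference of 2.05 in HEC vs EC and -2.25 in Runx1+ IAHC vs Runx1- IAHC. Cox7a1 had 1.29 and -2.04 in the same contrasts. The mitochondrial members went the other way, with -1.25 and 2.07 for mt-Nd2 and -2.03 and 2.69 for mt-Nd3. The count of mt-Nd3 is uncertain for its copy.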

How the results depend on the processing

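Of 128 values recomputed under the alternatives, 91 kept their direction within the limits set for a change (the order-statistic interval of a median over the members, 1.5 times for a count), 33 moved beyond them and 4 changed sign. Those intervals are wide, and among the 91 some medians changed in size. In Runx1+ IAHC vs Runx1- IAHC the mitochondrial median of 0.31 was 1.06 with a minimum of 1 TPM, and the medians that the scalings moved most are given with their comparisons. In HEC vs EC, 12 members higher became 7 without mitochondrial genes and copies in the scaling, 6 with median-ratio scaling and 1 with a 4-fold rule, and 3 lower became 6 with a minimum of 1 TPM, 5 with the first scaling and 1 with the 4-fold rule. In Runx1+ IAHC vs Runx1- IAHC, 10 higher and 10 lower became 5 and 3 with the 4-fold rule. In Runx1+ IAHC vs HEC, the nuclear median of 0.10 became -0.094 with median-ratio scaling. The mitochondrial median of -0.10 there became 0.12 with a minimum of 1 TPM, -0.30 with median-ratio scaling and 0.0078 as a mean. The 3 higher became 1 with a minimum of 50 TPM, and the 1 lower became 2 with a minimum of 1 TPM and 0 with the 4-fold rule. In Runx1- IAHC vs EC, the nuclear median of 0.36 became -0.14 with median-ratio scaling, 27 higher became 14 with that scaling and 4 with the 4-fold rule, and 10 lower became 19 without mitochondrial genes and copies, 24 with median-ratio scaling and 3 with the 4-fold rule. Without mitochondrial genes and copies in the total, nuclear members held 3.94% in Runx1+ IAHC, 3.75% in HEC, 3.40% in Runx1- IAHC and 3.61% in EC. The lowest nuclear share was then in Runx1- IAHC, whereas as deposited it was in EC. In the same order mitochondrial members held 3.37%, 3.63%, 4.89% and 5.56% of that total. As shares of recovered reads, nuclear members held 3.19%, 2.89%, 2.68% and 2.34% and mitochondrial members 2.16%, 2.32%, 2.72% and 2.97%. Where no construction shows it, the cause was not tested. No paired analysis was possible because each population has 1 library, and for the same reason no replicate could be left out. Cox8b, Cox8c and mt-Atp8 had at most 13 reads in any library. The part of read placement in the low count of mt-Atp8 was not tested.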
